A study of Mus musculus with 11 samples.

Results

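The genes described here are 8 markers of dendritic cells, Flt3, Cd209a, Xcr1, Clec9a, Zbtb46, Ccr7, Clec10a and Batf3. They were taken by symbol from the 24411 genes of the count tables, and all 8 were present. Polyadenylated RNA was sequenced from mouse brain cells labelled as microglia-like in a study of competitive transplantation of blood stem and progenitor cells, titled for a mouse model of Alzheimer’s disease. There were 11 libraries. Of these, 9 formed a complete layout of 3 populations, CD45.1 TAµ, CD45.2 µ and CD45.1 µ, by 3 routes, ITL, ICV and IV, which stand for the intrathecal lumbar, intracerebroventricular and intravenous routes. The other two were labelled ICV CD45.2 PBS and CTR µ, the control, which has no CD45 allele in its labels. CD45.1 and CD45.2 are the 2 alleles of the leukocyte surface protein Ptprc that are used to tell the cells of different mice apart. The labels used here do not say which allele marked the host, do not expand TAµ or PBS, and give no strain, disease transgene, age, animal number or pooling. The series' design text describes transplants into the ventricles followed by intravenous ones, and the labels do not say which mice received both. Every route and population pair was represented by 1 library.

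Dendritic cells take up antigen, carry it to lymph nodes and present it to T cells on MHC class II. They arise from blood progenitors through the receptor Flt3 and fall into conventional type 1 cells (cDC1), which depend on Batf3 and display Xcr1 and Clec9a, conventional type 2 cells (cDC2), and plasmacytoid cells. In the healthy brain they are known mainly from the meninges and choroid plexus and are rare in the tissue itself.

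Library depth ran between 6090589 and 21282823 counts, with 10477 to 15492 genes detected. The label was checked against 12 homeostatic microglia markers, whose summed level was 8050 to 30194 CPM (counts per 1000000 counts of the library) in the 11 libraries. The summed level of the 8 dendritic cell markers was 3.01 to 54.9 CPM. A pair of libraries had the fewest genes detected, IV CD45.2 µ with 10477 genes, and ICV CD45.1 µ with 11456. In IV CD45.2 µ 6 of the 8 markers had a count of 0, and in ICV CD45.1 µ 3 of 8, although their depths of 12938826 and 11139686 counts were not low. A count of 0 allows up to 0.232 CPM in IV CD45.2 µ and up to 0.269 CPM in ICV CD45.1 µ by the limit of 3 counts, which is a one-sided 95% bound. The exact Poisson intervals plotted with the levels hold 95% between both ends, so at a count of 0 they reach higher, to 0.285 and 0.331 CPM. Fitted fold changes of the markers and correlations are given with and without this pair. In bulk RNA of this kind, fewer cells of a type and less RNA per cell cannot be told apart.

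Clec10a needs a caution about its reads, and the sequence behind it is shown for that reason. It shares 242 of its 2803 windows of 50 bases with transcripts of Mgl2, a gene nearby on the same strand for a related galactose-binding lectin. The 2 stretches below are coding sequence from GENCODE M21 on GRCm38, spliced over 3 exons, at chr11:70169822-70170189 on the plus strand for Clec10a and chr11:70136337-70136699 on the plus strand for Mgl2. Capitals mark the longest run of identical bases, 183 in each gene, and lower case the 10 bases on either side.
Clec10a: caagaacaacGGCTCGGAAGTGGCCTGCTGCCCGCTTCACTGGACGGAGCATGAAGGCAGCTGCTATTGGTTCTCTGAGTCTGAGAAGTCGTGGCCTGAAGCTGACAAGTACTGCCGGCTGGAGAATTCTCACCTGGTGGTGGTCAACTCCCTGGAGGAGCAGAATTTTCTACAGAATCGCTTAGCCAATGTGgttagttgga
Mgl2: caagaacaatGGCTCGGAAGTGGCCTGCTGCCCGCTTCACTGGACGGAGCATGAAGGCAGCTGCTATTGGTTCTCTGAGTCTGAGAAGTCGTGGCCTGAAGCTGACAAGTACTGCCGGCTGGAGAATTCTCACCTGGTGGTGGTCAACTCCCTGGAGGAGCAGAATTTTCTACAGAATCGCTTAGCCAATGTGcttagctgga
A short read from inside the capitals cannot be assigned to 1 of the 2 genes, and how such reads were counted is not given in the sources used here. Mgl2 itself was measured at 4.29 to 46.9 CPM. Clec9a shared 4.02% of its windows with Clec1b, a gene on the same strand, with which 184 of its 3293 exonic bases overlap. The shared portion was 1.63% for Xcr1 and 0 windows for the other five markers.

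Among the receptors for growth and migration signals, Flt3 and Ccr7 were highest, of the 9 libraries, in ITL and IV CD45.1 TAµ and in ITL and ICV CD45.2 µ. Values of the 9 libraries are listed within each population in the order ITL, ICV, IV. Flt3, the receptor tyrosine kinase whose ligand drives dendritic cell development, stood at 8.83, 1.67 and 7.84 CPM in CD45.1 TAµ, at 5.09, 4.89 and 0 CPM in CD45.2 µ, and at 3.56, 0.0898 and 3.28 CPM in CD45.1 µ. It stood at 5.51 CPM in the PBS library, beside 1.15 CPM in CTR µ. The 3 populations overlapped: ICV CD45.1 TAµ lay below ITL and ICV CD45.2 µ and below ITL and IV CD45.1 µ.

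Ccr7, the chemokine receptor that guides mature dendritic cells to lymph nodes, was measured at 8.93, 1.59 and 6.28 CPM in CD45.1 TAµ, at 11, 6.86 and 0 CPM in CD45.2 µ, and at 2.92, 0 and 2.05 CPM in CD45.1 µ. It was measured at 4.9 CPM in the PBS library, beside 1.07 CPM in CTR µ. As for Flt3, the ICV library was the lowest of the CD45.1 TAµ population and the IV library the lowest of CD45.2 µ. In the order of the 11 levels, 9 of the 10 neighbouring pairs had overlapping exact 95% Poisson intervals for Flt3, and likewise 9 of 10 for Ccr7. For both genes the only break lay between CTR µ and the 2 libraries of few detected genes. These intervals cover counting error only.

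Xcr1, the receptor for the chemokine Xcl1 on cDC1 cells, was at the edge of detection. It had 25 counts in all, spread over 6 of the 11 libraries, and no library held as many as 10. Its highest level was 0.608 CPM in IV CD45.1 TAµ (9 counts), followed by 0.376 CPM in ICV CD45.2 µ (8 counts) and 0.315 CPM in ITL CD45.1 TAµ (3 counts). All 10 neighbouring pairs overlapped within counting error, so no order among the libraries could be read.

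The lectins had unlike patterns. Cd209a, a mouse relative of DC-SIGN found on cDC2 and monocyte-derived cells, was at 10.1, 7.02 and 18.6 CPM in CD45.1 TAµ, at 11.5, 11.2 and 0 CPM in CD45.2 µ, and at 0.913, 1.17 and 10.7 CPM in CD45.1 µ. It was at 8.41 CPM in the PBS library, beside 1.68 CPM in CTR µ. The levels fell into steps: IV CD45.1 TAµ stood alone at the top, 6 libraries lay between 7.02 and 11.5 CPM, 3 lay between 0.913 and 1.68 CPM, and IV CD45.2 µ was at 0. Neighbours within a step had overlapping intervals (7 of 10 pairs in all).

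Clec10a, the galactose-binding lectin of cDC2 cells and macrophages also called Mgl1, was the marker with the most even detection, with at least 25 counts in every library. It had 7.78, 8.86 and 8.98 CPM in CD45.1 TAµ, 4.1, 3.71 and 2.86 CPM in CD45.2 µ, and 9.5, 14.4 and 3.23 CPM in CD45.1 µ. The PBS library had 3.57 CPM and CTR µ 2.76 CPM. All 3 CD45.1 TAµ libraries lay above all 3 CD45.2 µ libraries, and ICV CD45.1 µ was the highest of all, in contrast to its 0 to 5.3 CPM for the other seven markers. In the order, 8 of 10 neighbouring pairs overlapped.

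Clec9a, the lectin by which cDC1 cells sense dead cells, reached 1.26, 0 and 2.3 CPM in CD45.1 TAµ, 0.164, 1.27 and 0 CPM in CD45.2 µ, and 1.37, 0.269 and 0 CPM in CD45.1 µ. It reached 0.867 CPM in the PBS library, beside 0.0765 CPM in CTR µ, where it had 1 count. With 110 counts in all, none of the 10 neighbouring pairs was separated by counting error. Libraries further apart in the order were: the interval of IV CD45.1 TAµ (1.59 to 3.21 CPM) lay wholly above that of the PBS library (up to 1.39 CPM). It also lay wholly above those of all libraries lower than PBS.

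Of the transcription factors, Zbtb46, which marks the conventional dendritic cell lineage and is also made by endothelial cells, was at 4.31, 6.94 and 6.15 CPM in CD45.1 TAµ, at 6.57, 4.51 and 0 CPM in CD45.2 µ, and at 5.94, 0 and 0.117 CPM in CD45.1 µ. It was at 2.45 CPM in the PBS library, beside 1.53 CPM in CTR µ. The 9 libraries split into 6 at 4.31 CPM or more and 3 at 0.117 CPM or less, with CTR µ and PBS between. The 10 endothelial and mural markers summed to 26.5 to 442 CPM in the 11 libraries. They were at 442 CPM in ICV CD45.1 TAµ, the library with most Zbtb46. They were at 430 CPM in IV CD45.2 µ, a library of few detected genes, where Zbtb46 had a count of 0. The part of endothelial cells in the Zbtb46 level was not tested.

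Batf3, the factor that cDC1 cells need to develop, was at 3.57, 17.6 and 4.12 CPM in CD45.1 TAµ, at 6.24, 3.38 and 0.155 CPM in CD45.2 µ, and at 5.48, 5.3 and 4.52 CPM in CD45.1 µ. It was at 7.55 CPM in the PBS library, beside 4.59 CPM in CTR µ. ICV CD45.1 TAµ at the top and IV CD45.2 µ at the bottom stood alone. Among the 9 libraries between them all neighbours overlapped, though the interval of the PBS library lay wholly above those of 5 others, CTR µ among them. The 8 oligodendrocyte markers summed to 1263 CPM in ICV CD45.1 TAµ, their highest level, against 102 to 941 CPM elsewhere. The part of this in the Batf3 level was not tested.

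**Figure D1:**
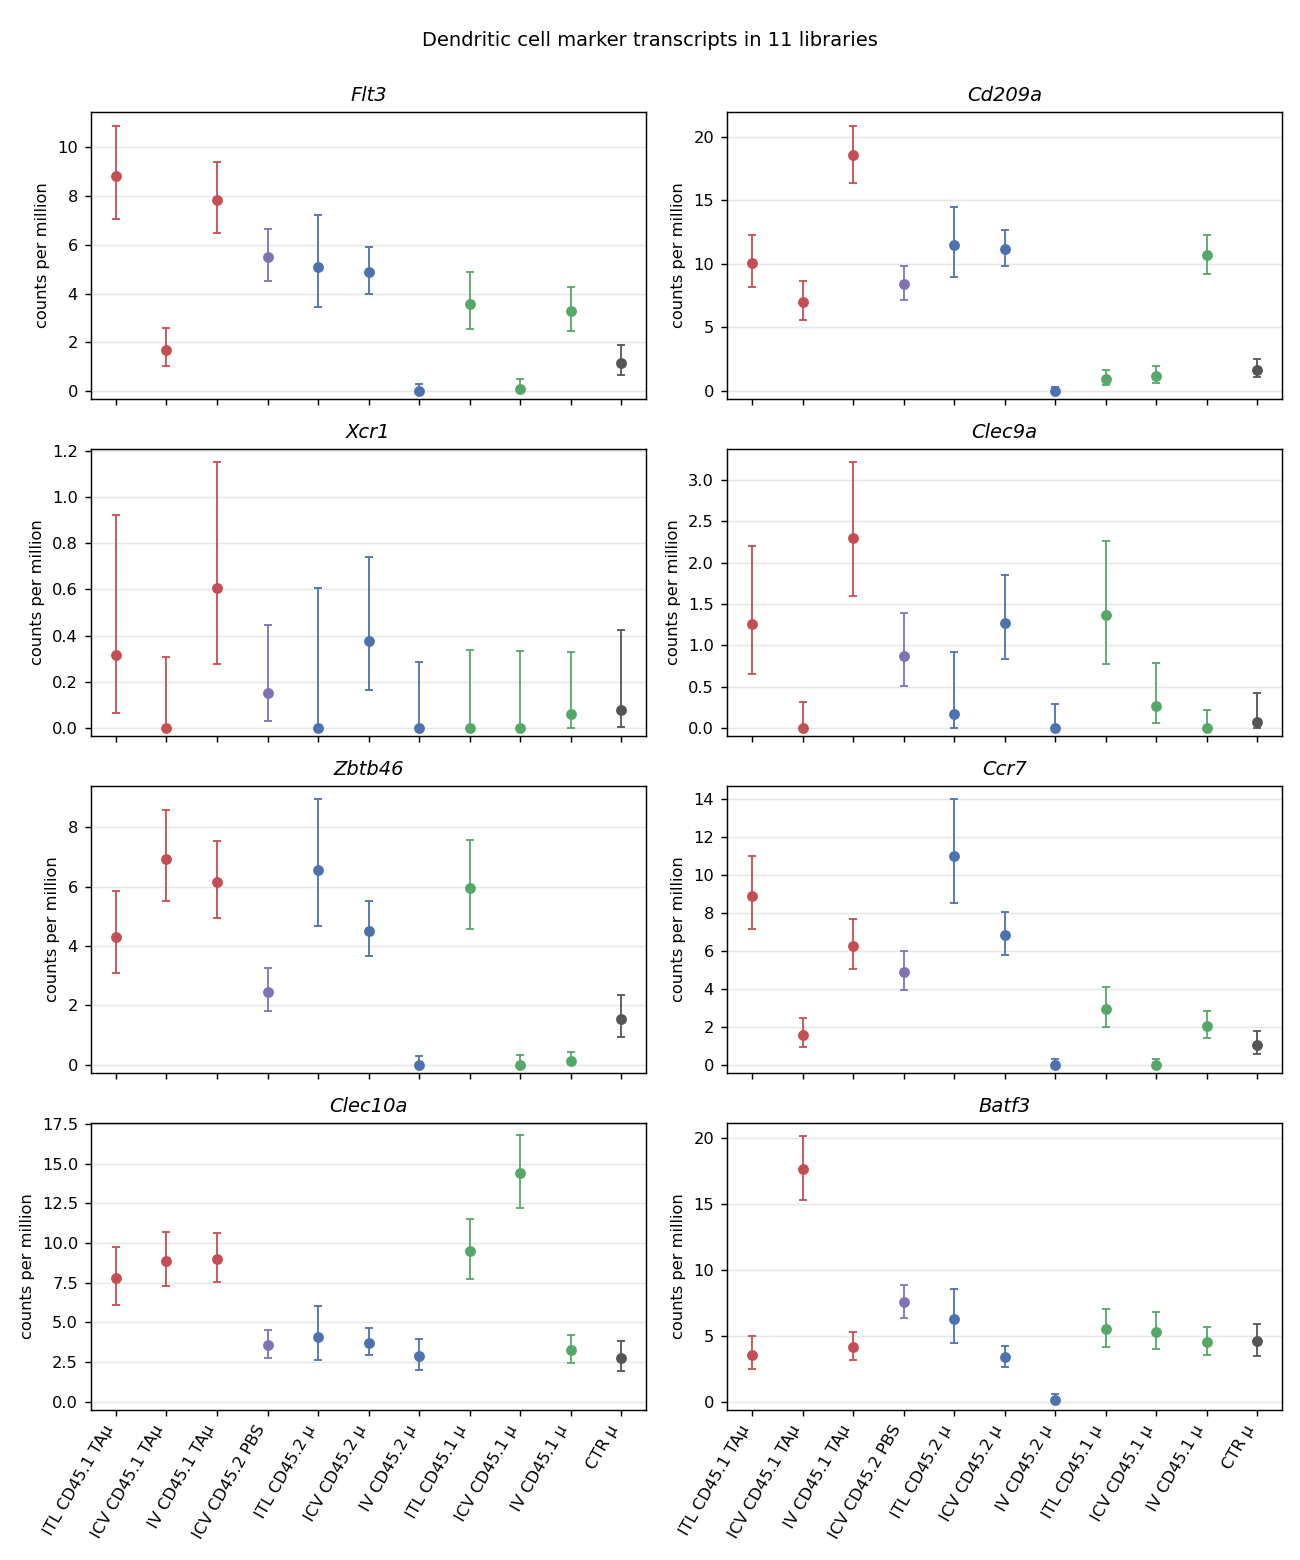
CPM (y axis, linear, own scale per gene) of the 8 markers in each of 11 libraries (x axis, coloured by population); points are single libraries and bars exact 95% Poisson intervals. IV CD45.2 µ sits at 0 for 6 of the 8 genes, and Clec10a alone has 3 CD45.1 TAµ points all above 3 CD45.2 µ points.

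To compare genes roughly, levels were divided by the length of all annotated exons of a gene together. On this scale Cd209a had the highest median level over the 11 libraries, 5.31 CPM per kilobase of exon. Batf3 followed with 2.88, Ccr7 with 1.48, Clec10a with 1.42, Flt3 with 0.577 and Zbtb46 with 0.507 CPM per kilobase. The 2 cDC1 surface markers came last, with 0.0818 CPM per kilobase for Clec9a and 0.0132 for Xcr1. The order may depend on the length used: for Batf3 it was 1597 bases, while its protein-coding transcripts held 752 windows of 50 bases.

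The sum of the 8 markers was highest in IV CD45.1 TAµ, and by library total the CD45.1 TAµ libraries overlapped those of CD45.2 µ but not those of CD45.1 µ. The summed level was 45, 43.6 and 54.9 CPM in CD45.1 TAµ, 44.7, 36.2 and 3.01 CPM in CD45.2 µ and 29.7, 21.2 and 23.9 CPM in CD45.1 µ. It was 33.4 CPM in the PBS library, beside 12.9 CPM in CTR µ, the lowest apart from IV CD45.2 µ. Scaled by TMM, CD45.1 TAµ lay above both other populations, at 48.1 to 51.5 CPM in CD45.1 TAµ, 2.77 to 42.4 CPM in CD45.2 µ and 19.2 to 28.3 CPM in CD45.1 µ. With Rn45s, a ribosomal RNA gene, left out of the total, it did so too, at 58.2 to 60.2 CPM in CD45.1 TAµ, 3.3 to 53.0 CPM in CD45.2 µ and 22.8 to 33.8 CPM in CD45.1 µ. The overlap with CD45.2 µ thus depends on the scaling. Like the sums, the number of genes detected was higher in all CD45.1 TAµ libraries (13560 to 15492) than in those of CD45.1 µ (11456 to 12232). In CD45.2 µ it was 10477 to 14668. It did not follow the sums throughout. CTR µ had 14530 genes, and ITL CD45.2 µ had 13627 beside 14668 in ICV CD45.2 µ, whose sum was lower. The part of detection in the differences between populations was not tested. By route the sums overlapped, at 29.7 to 45 CPM for ITL, 21.2 to 43.6 CPM for ICV and 3.01 to 54.9 CPM for IV.

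**Figure D2:**
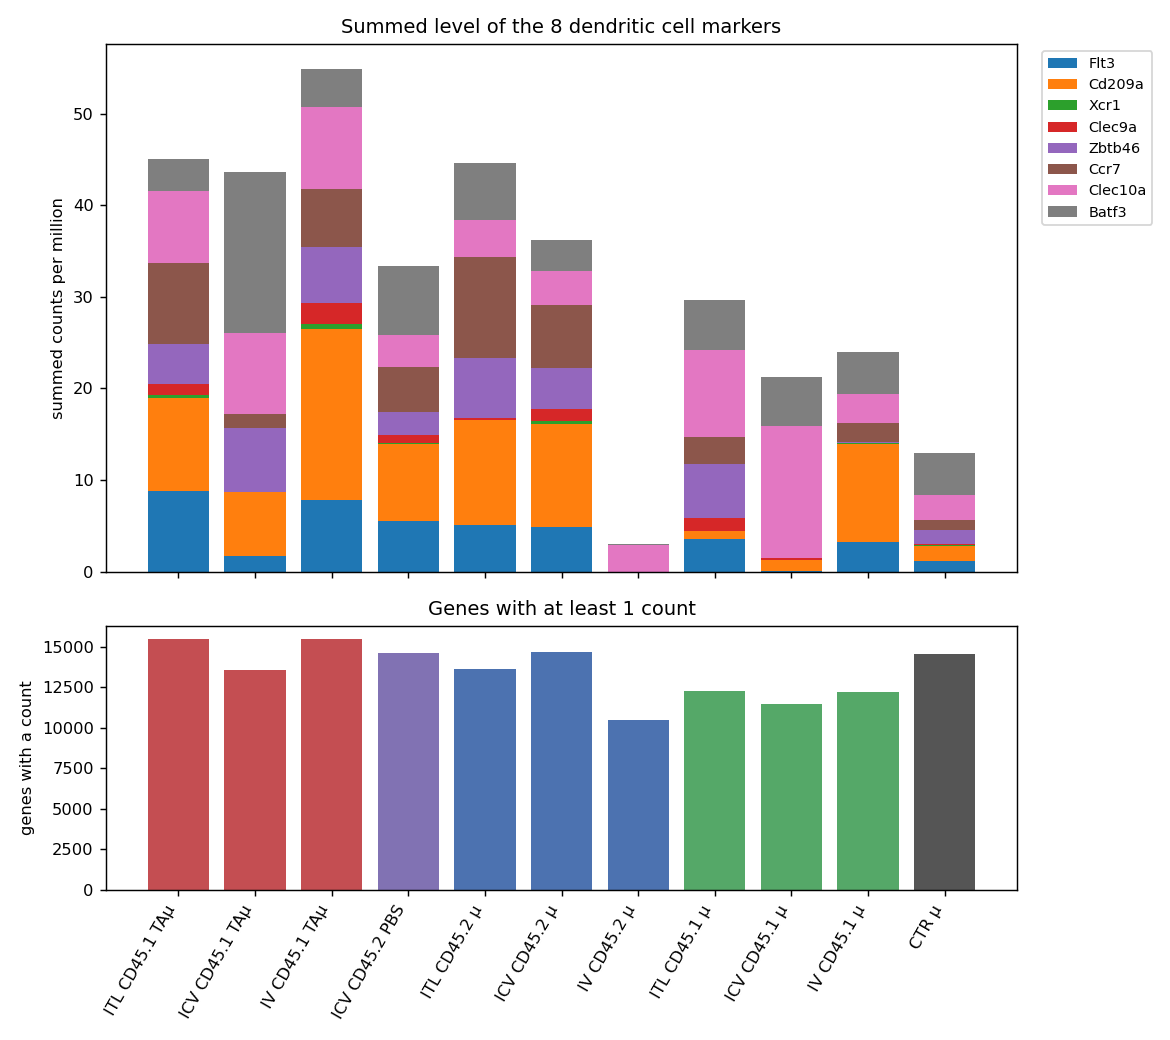
Upper bars stack the CPM of the 8 markers in each library, and lower bars give the number of genes with at least 1 count; libraries run along the x axis. CD45.1 TAµ bars reach 43.6 to 54.9 CPM and CD45.1 µ bars 21.2 to 29.7 CPM, while the makeup differs within a population, as with Batf3 at 17.6 CPM in ICV CD45.1 TAµ.

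The populations and routes were compared in an additive model of route and population over the 9 libraries, tested with edgeR's quasi-likelihood F test and Benjamini-Hochberg adjustment over 13339 genes at 0.05. Of the markers, 7 passed the filter on low counts and Xcr1 did not. With 1 library per combination, the spread comes from how far libraries depart from additive effects, and p-values measure only the spread between these libraries.

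None of the markers, 0 of 7, passed in CD45.1 TAµ against CD45.1 µ, where 0.075% of all genes did (10 of 13339). All 7 fitted log2 fold changes were positive, with a median of 1.41 beside 0.06 over all genes. Other lists also leaned upward here: 7 of 7 tested T and NK cell markers (median 6.65) and 8 of 8 oligodendrocyte markers (1.11) were positive. So were 8 of 9 endothelial and mural markers (2.19). The T and NK cell genes Gzmb and Prf1, at 8.65 ± 3.43 and 8.34 ± 3.56 (SE), had 0 CPM in all 3 CD45.1 µ libraries. Their change could thus only be positive. The oligodendrocyte markers summed to 234, 1263 and 117 CPM in CD45.1 TAµ and 356, 233 and 153 CPM in CD45.1 µ. The endothelial and mural markers summed to 104, 442 and 33.6 CPM against 109, 58.1 and 26.5 CPM. Both sums were highest in ICV CD45.1 TAµ. Neutrophil markers leaned downward, with 1 of 9 positive (-1.32), as did homeostatic microglia markers, with 1 of 12 (-0.27). The neutrophil sum was highest, of the 11 libraries, in IV CD45.1 µ, at 13861 CPM. The further dendritic cell lists differed. Positive changes were found in 13 of 14 mature and migratory genes (0.41) and 7 of 10 cDC1 genes (0.31). Lineage genes had 8 of 15 positive (0.09), cDC2 genes 3 of 9 (-0.19) and plasmacytoid genes 3 of 7 (-0.06). Of the 7 dendritic cell markers the largest change was that of Zbtb46, 1.99 ± 1.26 (SE), with a 95% interval of -0.64 to 4.63 and an adjusted p of 0.874. With each library left out in turn it ran from 1.23 to 6.27, the highest without ITL CD45.1 µ, the only CD45.1 µ library with more than 2 counts of Zbtb46. Ccr7 followed with 1.80 ± 1.27, Clec9a with 1.55 ± 1.97, Flt3 with 1.41 ± 1.14 and Cd209a with 1.40 ± 0.97, which became 3.88 without IV CD45.1 µ. Batf3 had 0.75 ± 0.89 and Clec10a 0.21 ± 0.73. At an unadjusted p under 0.05 edgeR counted 0 markers and DESeq2 1, Zbtb46, with a p of 0.0224 and an adjusted p of 0.417.

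Read by route, Flt3, Cd209a and Ccr7 were higher in the CD45.1 TAµ library in 3 of 3 routes, as were 15% of all genes. Zbtb46 and Xcr1 were higher in 2 of 3 routes, while Clec9a, Clec10a and Batf3 were lower in 2 of 3. The CD45.1 TAµ median was the lower one for Clec10a (8.86 against 9.5 CPM) and Batf3 (4.12 against 5.3 CPM). For 0 markers did the 3 libraries of one population lie wholly above those of the other, which held for 7.89% of genes upward and 6.33% downward. Without the pair of libraries the fold changes were 1.13 for Flt3, 1.27 for Cd209a, 1.47 for Ccr7, 1.47 for Clec9a and 1.31 for Zbtb46, and those of Batf3 and Clec10a were 0.09 and 0.61.

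In CD45.2 µ against CD45.1 µ, again 0 of 7 markers passed (0.03% of all genes, 4 in number). Ccr7 had a fitted log2 fold change of 1.79 ± 1.27 (SE, 95% interval -0.87 to 4.45), with an adjusted p of 0.674. Clec10a had the opposite sign, -1.23 ± 0.86 with an interval of -3.03 to 0.57 and an adjusted p of 0.67, and its CD45.2 µ level was the lower one in 3 of 3 routes, as were 13.4% of all genes. Batf3 was also negative, at -1.03 ± 1.11, and the other four markers had 0.67 to 1.04. At an unadjusted p under 0.05 both edgeR and DESeq2 counted 0 markers. Without the 2 libraries of few detected genes, Ccr7 had 2.32 and was the 1 marker with an unadjusted p under 0.05 by edgeR, with an adjusted p of 0.63. Flt3 was then at 1.27, Cd209a at 1.84, Clec9a at 1.60 and Zbtb46 at 0.76, against 0.67, 0.73, 0.71 and 1.04 with that pair, and Clec10a and Batf3 were at -0.77 and -1.49. The 3 CD45.2 µ and 3 CD45.1 µ libraries overlapped for all 8 markers, while 4.45% of genes lay wholly above and 5.64% wholly below.

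The comparison of CD45.1 TAµ against CD45.2 µ gave 0 of 7 markers past the threshold where 0.345% of genes did (46 in number), and 0 had an unadjusted p under 0.05 by edgeR or DESeq2. Batf3 had 1.78 ± 1.01 (SE, 95% interval -0.33 to 3.90), with an adjusted p of 0.811, and 0.64 without ICV CD45.1 TAµ, the library at 17.6 CPM. Clec10a had 1.45 ± 0.86, with an interval of -0.36 to 3.25 and an adjusted p of 0.837. Clec10a was higher in CD45.1 TAµ in 3 of 3 routes, as were 13.3% of genes, and was the single marker whose 3 libraries lay wholly above, as 6.29% of genes did (4.78% lay wholly below). Its mean level was 8.54 ± 0.664 CPM in CD45.1 TAµ and 3.56 ± 0.637 CPM in CD45.2 µ (SD, n = 3 each). Mgl2, the gene that shares sequence with Clec10a, had 1.41 ± 0.52 in the same comparison (SE, edgeR adjusted p = 0.518). Its 3 CD45.1 TAµ libraries (46.9, 26.7 and 43.2 CPM) also lay above the 3 CD45.2 µ libraries (7.39, 26.4 and 9.58 CPM). By ICV, at 26.7 against 26.4 CPM, the levels of Mgl2 were nearly equal. Of 11 tested border-associated macrophage markers 9 had positive changes in this comparison of populations. Their median was 1.39 beside 0.10 over all genes, and 1 passed. That was Mrc1, the macrophage mannose receptor, with 1.49 ± 0.29 (SE, edgeR adjusted p = 0.0302), a call lost in 9 of 16 alternatives (adjusted p 9.49e-06 to 0.675), among them those without any 1 of 6 libraries. The part of these macrophages in the Clec10a level was not tested. The fitted change of Ccr7 was 0.00 ± 1.03, with an interval of -2.15 to 2.16. Leaving out the pair of libraries turned Flt3 to -0.15, Cd209a to -0.57, Clec9a to -0.12 and Ccr7 to -0.85, against 0.75, 0.67, 0.84 and 0.00 with them. Batf3 then had 1.59 and Clec10a 1.37.

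Between routes, ICV against IV gave 0 of 7 markers past the threshold, where 0 of all genes passed (0%) and 1230 had an unadjusted p under 0.05 by edgeR. Batf3 had the largest fitted log2 fold change, 1.61 ± 0.93 (SE, 95% interval -0.35 to 3.56), with an adjusted p of 0.605, and 0.69 without ICV CD45.1 TAµ. It was higher in ICV in 3 of 3 populations, as were 8.87% of genes. Flt3 and Cd209a had -0.29 ± 1.18 and -0.34 ± 0.93. For 0 markers were the routes wholly apart (3.06% of genes above, 7.01% below), and 0 markers had an unadjusted p under 0.05 by edgeR or DESeq2. Without the pair of libraries Ccr7 was at -0.72 and Clec9a at -0.84, against 0.31 and 0.04 with them, while Flt3 was at -0.93, Cd209a at -1.33 and Batf3 at 1.92.

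ITL against IV also gave 0 of 7 markers past the threshold (0.217% of genes, 29 in number). Zbtb46 had 1.65 ± 1.29 (SE, 95% interval -1.04 to 4.34) and an adjusted p of 0.922, and 6.05 without IV CD45.1 TAµ. It had by DESeq2 an unadjusted p of 0.0228 with an adjusted p of 0.46. Zbtb46 was the only marker under 0.05 unadjusted by DESeq2, and by edgeR there were 0. Ccr7 had 1.39 ± 1.13 and Flt3 0.69 ± 1.11, and both were higher in ITL in 3 of 3 populations, as were 13.2% of genes. Without the pair Flt3 was at 0.01, Ccr7 at 0.39 and Zbtb46 at 1.10. No marker separated the routes wholly (4.74% of genes above, 6.84% below).

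In ITL against ICV 0 of 7 markers passed where 0% of genes did, and 506 genes had an unadjusted p under 0.05, none of them a marker by edgeR or DESeq2. The largest fitted changes were 1.09 ± 1.11 for Ccr7 (SE, 95% interval -1.22 to 3.40) and 0.98 ± 1.20 for Flt3, each with an adjusted p of 0.998. Both were higher in ITL in 3 of 3 populations, as were 16.7% of genes. Batf3 had -0.86 ± 0.97. Without the pair Ccr7 was at 1.11, Flt3 at 0.94 and Batf3 at -1.36. No marker separated these routes wholly (6.47% of genes above, 3.28% below).

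**Figure D3:**
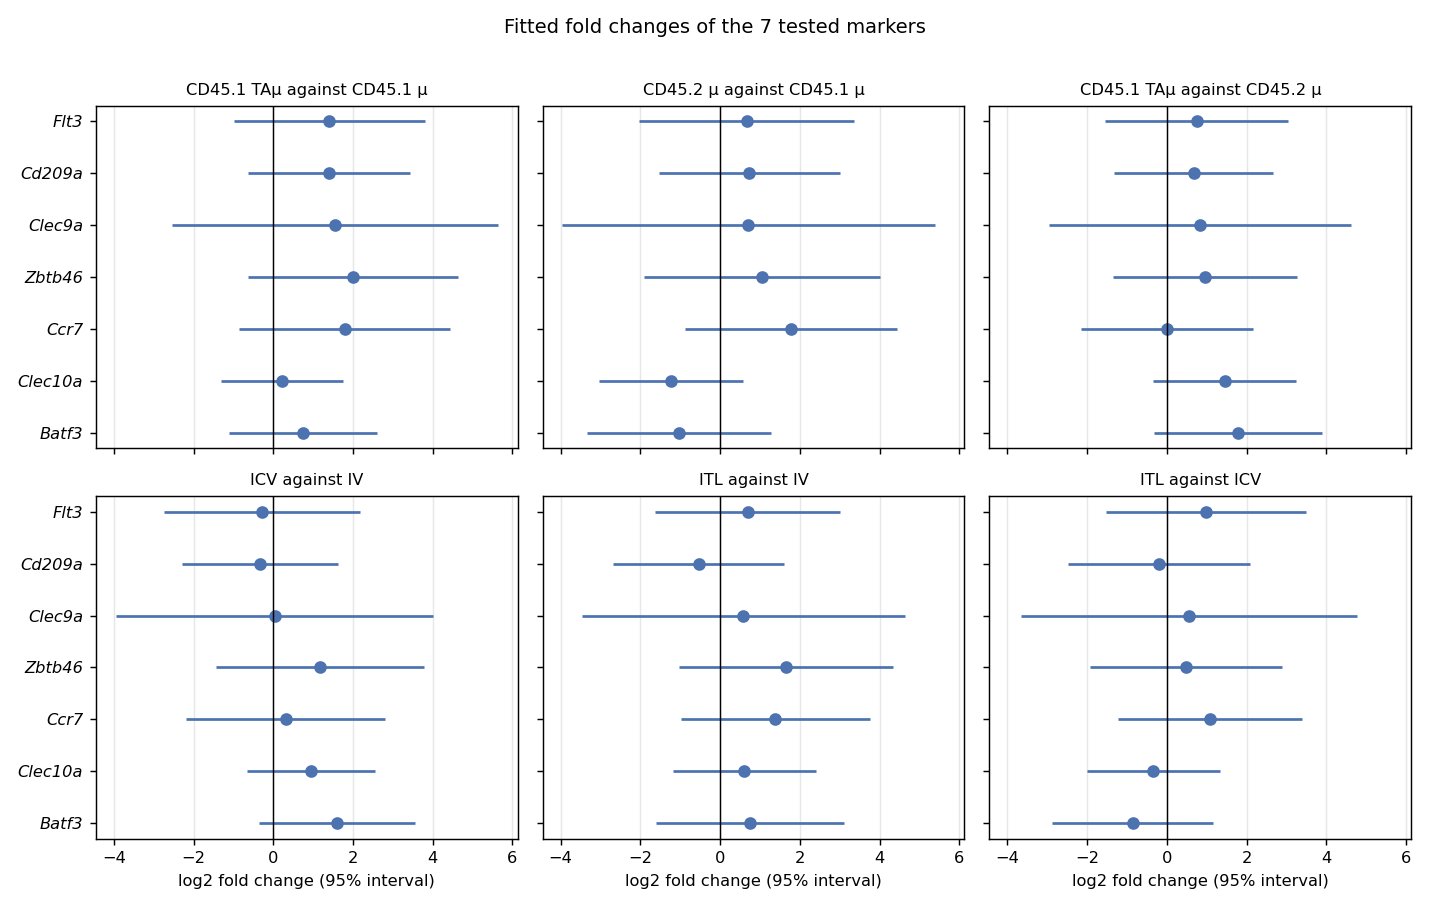
Fitted log2 fold changes (x axis, first-named group over the second) with 95% intervals for the 7 tested markers (y axis) in 6 comparisons. All 42 intervals include 0, and the widest are those of Clec9a.

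Set against CTR µ, the 9 transplant libraries averaged more of every marker, but single libraries spread on both sides. Flt3 averaged 3.92 ± 3.11 CPM in the 9 libraries (SD) and 1.15 CPM in CTR µ, and 7 of the 9 lay above it. Cd209a averaged 7.90 ± 6.20 CPM in the 9 and 1.68 CPM in CTR µ, with 6 of 9 above. Clec10a averaged 7.04 ± 3.86 CPM in the 9 and 2.76 CPM in CTR µ, with 9 of 9 above, though the lowest, at 2.86 CPM, lay within the counting interval of CTR µ (1.93 to 3.81 CPM). Clec10a was the only marker of CTR µ outside the range of the 9, below it, as were 6.31% of 14766 genes (5.63% lay above). Batf3 was nearly level, 5.59 ± 4.82 CPM in the 9 and 4.59 CPM in CTR µ, with 4 of 9 above. CTR µ was 1 library, so there is no test. Without the pair of libraries 3 markers of CTR µ lay below the range of the other 7, Flt3, Ccr7 and Clec10a, as did 11.4% of the 14766 genes. Over all 9 libraries, 0 markers of CTR µ lay outside the range under TMM scaling or with Rn45s left out of the total. These scalings were not run without the pair.

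The PBS library was compared with ICV CD45.2 µ, the library of the same route and allele, as 1 library against 1 and without a test. The intervals of these ratios cover counting error only and say nothing of the spread between libraries of a group. Batf3 was higher in the PBS library, 7.55 CPM (148 counts) against 3.38 CPM (72 counts) in ICV CD45.2 µ, a ratio of 2.23 with an exact 95% interval of 1.67 to 3.0. A ratio of 2 or more was reached by 10.9% of 13707 genes. Zbtb46 was lower, 2.45 CPM in the PBS library against 4.51 CPM in ICV CD45.2 µ, a ratio of 0.543 (0.375 to 0.775). The intervals of Cd209a and Ccr7 also lay below 1, with ratios of 0.752 (0.613 to 0.921) and 0.714 (0.546 to 0.930). Those of Flt3, Clec9a and Clec10a spanned 1, at 1.13, 0.683 and 0.962. Xcr1 had 3 counts in the PBS library and 8 in ICV CD45.2 µ, a ratio of 0.407 (0.0695 to 1.7), where 10.5% of genes were lower by 2-fold or more.

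Across the 11 libraries the markers did not move as 1 group. Flt3 and Ccr7 were the most alike, with a Pearson r of 0.96 between their values of log2(CPM + 0.5), and 0.89 over 9 libraries without the pair of few detected genes. Flt3 and Cd209a had 0.83 over 11 and 0.61 over 9, and Flt3 and Zbtb46 0.74 and 0.27. Clec10a stood apart from Flt3, with 0.00 over 11 libraries and 0.28 over 9. The r of Flt3 with Batf3 changed sign, 0.39 over 11 and -0.47 over 9. These values are descriptions, since the points share depth and detection.

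**Figure D4:**
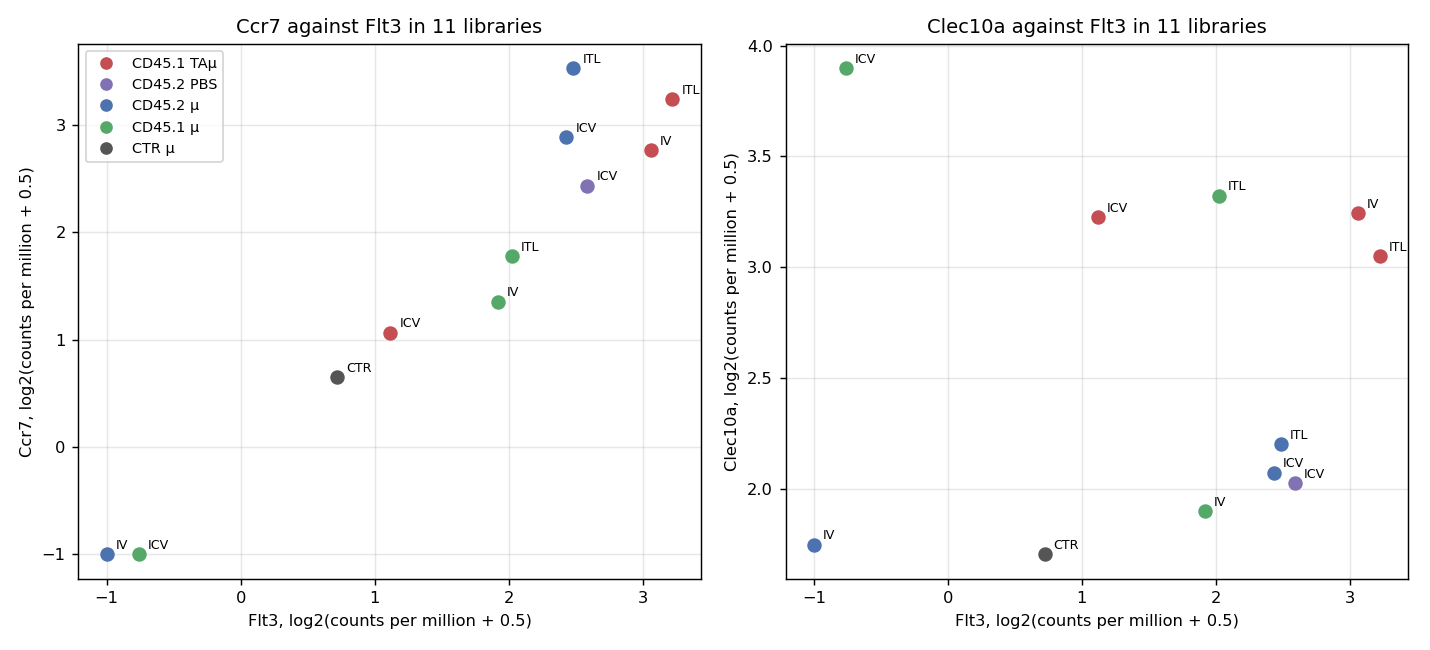
Each point is 1 of 11 libraries, labelled by route and coloured by population, on log2(CPM + 0.5) axes: Ccr7 (left) and Clec10a (right) against Flt3. Ccr7 follows Flt3 with an r of 0.96, while Clec10a has an r of 0.00.

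Among all other genes, those closest in pattern to each of the 6 markers with enough counts were named by the same r over 11 libraries. Over 9 libraries, without the pair, the r of these 18 gene pairs was 0.78 to 0.97. Closest to Flt3 were Napsa, an aspartic protease gene, with 0.96 (0.94 over 9 libraries), Vill with 0.95 and Haus8 with 0.94. Closest to Ccr7 were Vcan, the proteoglycan versican, with 0.95, Napsa with 0.94 and Cd300lb with 0.93, so Napsa stood in both sets. Cd209a was followed by Net1, Pilrb2 and Tas1r3 at 0.93 to 0.94, and Zbtb46 by AA414768, Aamdc and Mdk at 0.96 to 0.99. Clec10a was followed by Gimap8, Fbxo3 and Decr2 at 0.90 to 0.93, and Batf3 by Hps6, Ankrd13d and Isoc2a at 0.94. Several of these genes were themselves low, with a highest level of 2.65 CPM for Gimap8, 2.82 CPM for Tas1r3 and 3.28 CPM for AA414768.

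Other genes of the dendritic cell program, taken from lists of textbook markers, covered a wide range of levels. The 12 further cDC1 genes summed to 1020 to 1298 CPM in the 11 libraries, carried by genes that microglia also make, such as the interferon regulatory factor Irf8 (243 to 362 CPM) and Wdfy4 (151 to 294 CPM), while others were as low as the markers, and Cd8a and Gcsam had a count of 0 in at least 6 libraries. In the 6 comparisons 0 of the 10 tested cDC1 genes passed. The cDC2 list was carried by Sirpa, an inhibitory receptor, and Klf4, a transcription factor, and 1 of its 9 tested genes passed in 1 comparison: Klf4 fell in ITL against IV, with a log2 fold change of -1.65 ± 0.30 (SE, edgeR adjusted p = 0.0216). Klf4 was at 140, 178 and 95.5 CPM in the ITL libraries and 627, 302 and 389 CPM in the IV libraries, in the order CD45.1 TAµ, CD45.2 µ, CD45.1 µ, without overlap. The Klf4 call was lost in 7 of 16 alternatives, among them those without any 1 of 5 libraries, namely CD45.1 TAµ by ITL or IV and CD45.1 µ by ITL, ICV or IV (adjusted p 2.32e-05 to 0.624 over all 16).

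Of 14 tested genes of mature and migratory dendritic cells, 1 passed in 1 comparison. Fscn1, which codes for the actin-bundling protein fascin, fell in CD45.1 TAµ against CD45.2 µ, with a log2 fold change of -3.48 ± 0.53 (SE, edgeR adjusted p = 0.00376). It was at 17.3, 34.1 and 15.3 CPM in CD45.1 TAµ and 394, 90.2 and 464 CPM in CD45.2 µ. The call was lost in 3 of 16 alternatives, without IV CD45.1 TAµ, without the pair of libraries and with edgeR's legacy fit (adjusted p 0.000146 to 0.398 over all 16). The homeostatic microglia marker Sall1 fell in the same comparison, with -6.27 ± 0.49 (SE, edgeR adjusted p = 3.6e-06). Of the list, 11 of 14 genes had positive fold changes there, with a median of 0.23 beside 0.10 over all genes. CTR µ held the highest Fscn1 level of the 11 libraries, 601 CPM.

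The 10 MHC class II genes, through which dendritic cells and activated macrophages present antigen, summed to 5814 to 6413 CPM in CD45.1 TAµ, 1833 to 4882 CPM in CD45.2 µ and 2016 to 3402 CPM in CD45.1 µ. The PBS library was the highest of the 11, at 6489.7 CPM, and CTR µ the lowest, at 966 CPM. In CD45.1 TAµ against CD45.1 µ 10 of 10 had positive fold changes, with a median of 0.96 beside 0.06 over all genes, and 0 passed. H2-Aa, a class II alpha chain, had 1.46 ± 0.30 (SE, adjusted p = 0.0999) and passed in 4 of 16 alternatives, with no filter, with DESeq2, and without IV or ICV CD45.2 µ (adjusted p 9.25e-05 to 0.979 over all 16). Itgax, which codes for the integrin CD11c of dendritic cells, had 1.39 ± 0.38 with an adjusted p of 0.543. The 7 tested plasmacytoid genes and the 15 lineage genes had 0 passing in each of the 6 comparisons, as did the 8 tested relatives of the Cd209 and Mgl lectins.

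Markers of other blood cells, and of border-associated macrophages, were read beside these sums. The 12 T and NK cell markers summed to 23.7 to 25.2 CPM in CD45.1 TAµ, 0 to 15.8 CPM in CD45.2 µ and 4.05 to 8.44 CPM in CD45.1 µ, with 8 of the 12, among them Cd3e, Cd3g and Cd8a, at 0 in at least 6 libraries. The 12 classical monocyte markers summed to 507 to 1491 CPM in CD45.1 TAµ, 162 to 1834 CPM in CD45.2 µ and 394 to 1739 CPM in CD45.1 µ. Both lists were lowest in IV CD45.2 µ, as were the neutrophil markers, at 2.86 CPM there. The 9 neutrophil markers summed to 834 to 3663 CPM in CD45.1 TAµ, 2.86 to 4031.5 CPM in CD45.2 µ and 1226 to 13861 CPM in CD45.1 µ. Their highest sum was that of IV CD45.1 µ, where the homeostatic microglia markers summed to 10648 CPM. The 12 border-associated macrophage markers summed to 4067 to 5942 CPM in CD45.1 TAµ, 1931 to 4368 CPM in CD45.2 µ and 4174 to 6107 CPM in CD45.1 µ. The part of these cells in the marker levels was not tested.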

How the data were processed

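Polyadenylated RNA from 11 sorted mouse brain libraries was reverse transcribed and sequenced, per the labels. The authors deposited raw counts, whole reads per gene symbol with no normalization, 1 table of 24411 genes per library. Per the submitters' processing notes, reads were aligned with STAR to a genome named mm39 and GRCm39. The STAR version, the annotation, the strand setting and the treatment of reads with several matches are left unstated in the sources used here.

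Levels are CPM, counts per 1000000 counts of the library, with exact 95% Poisson intervals. A count of 0 was given a limit of 3 counts. Route and population of 9 libraries were fitted additively in edgeR 4.0.16 (R 4.3.3, limma 3.58.1) with TMM factors and a quasi-likelihood F test, which left 4 residual degrees of freedom. Low genes were removed (minimum count 10, minimum total 15), which left 13339, and p-values were adjusted by Benjamini-Hochberg at 0.05. The biological coefficient of variation was 0.842. DESeq2 1.42.0 was an alternative, as were other scalings, no filter, no route or population block, and leaving libraries out. SEs are the absolute fold change over the square root of F. CTR µ and PBS, 1 library each, stayed out of the model. Exon lengths, shared windows and sequences come from GENCODE M21 on GRCm38, a build other than that of the counts, and no coordinates were carried between builds.

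The markers and 17 further gene lists (192 of 195 listed genes in the tables) were chosen with earlier results of these data known. All 8 markers are named in each comparison. From a list, up to 4 genes with the highest mean level and any that passed could be named, and Mgl2, Itgax, Cd8a, Gcsam, Cd3e, Cd3g and Fscn1's level in CTR µ were chosen after their values were seen. For likeness, the 3 genes with the highest r were taken, unnamed predicted genes left out, for markers averaging at least 1 CPM with 10 counts in 6 libraries.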

Additional observations from a re-analysis of the deposited data

Results flagged for a closer look

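For Flt3, Ccr7, Clec9a and Cd209a the difference between populations had opposite signs by different routes. These are differences of log2(CPM + 0.5) between single libraries, and the difference between routes was not tested, since each combination has 1 library. Each of them has at least 1 of the 2 libraries with fewest genes detected, ICV CD45.1 µ and IV CD45.2 µ, on one side.

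In CD45.2 µ minus CD45.1 µ, Flt3 had 3.19 by ICV and -2.92 by IV. Ccr7, the other receptor with this pattern, had 3.88 by ICV and -2.35 by IV. Cd209a had 3.08 by ITL and -4.48 by IV. Clec9a had 1.20 by ICV and -1.49 by ITL.

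In CD45.1 TAµ minus CD45.2 µ, Flt3 had 4.06 by IV and -1.31 by ICV. Ccr7 had 3.76 by IV and -1.82 by ICV. Clec9a had 2.48 by IV and -1.82 by ICV. On the negative side, ICV CD45.1 TAµ held 1.67 CPM of Flt3, 1.59 CPM of Ccr7 and 0 CPM of Clec9a, against 4.89, 6.86 and 1.27 CPM in ICV CD45.2 µ.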

How the results depend on the processing

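In all 6 comparisons 0 of the 7 tested markers passed the threshold under every alternative run. Over 42 fitted changes and 672 values under alternatives, 62 had the opposite sign and 0 newly passed. No paired analysis was possible because the labels give no animal or replicate number beyond the route and population by which the model already matches libraries. Xcr1, with fewer than 10 counts in every library, was tested only with no filter, where 0 of the 8 markers passed in any comparison.

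The number of all genes past the threshold moved more than the markers did. In CD45.1 TAµ against CD45.1 µ the number was 10, and 18 with the library total alone, 23 with no filter, 217 with DESeq2, 2 with no block and 3 with edgeR's legacy fit, which was added after seeing the data. In CD45.2 µ against CD45.1 µ the number was 4, and 277 with DESeq2, 0 with no block and 0 with the legacy fit. In CD45.1 TAµ against CD45.2 µ the number was 46, and 193 with DESeq2 and 22 with the legacy fit. For ICV against IV it was 0, and 3 with the library total alone, 8 with no filter and 147 with DESeq2. For ITL against IV it was 29, and 150 with DESeq2, 16 with no block, 49 without the pair with fewest detected genes (ICV CD45.1 µ, IV CD45.2 µ) and 10 with the legacy fit. For ITL against ICV it was 0, and 2 with no filter, 32 with DESeq2 and 2 without that pair. With each library left out in turn the counts ran 0 to 24, 0 to 29, 5 to 159, 0 to 28, 0 to 35 and 0 to 3, in the same order of comparisons. The lowest of the 5 to 159 came without IV CD45.1 TAµ and the highest without ICV CD45.2 µ, and the 24, 28 and 35 came without IV CD45.2 µ. The causes were not tested.

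Fitted log2 fold changes turned sign as follows. Without the pair, CD45.1 TAµ against CD45.2 µ gave Flt3 -0.15, Cd209a -0.57, Clec9a -0.12 and Ccr7 -0.85, ICV against IV gave Clec9a -0.84 and Ccr7 -0.72, ITL against IV gave Clec9a -0.09, and ITL against ICV gave Clec10a 0.09. With DESeq2, Clec9a was at -0.04 in CD45.2 µ against CD45.1 µ and -0.05 for ITL against ICV, Ccr7 at -0.46 for CD45.1 TAµ against CD45.2 µ and -0.93 for ICV against IV, and Cd209a at 0.04 for ITL against ICV. With the legacy fit Ccr7 was at -0.44 and -0.90 in the same pair of comparisons and Cd209a at 0.03. Ccr7 in CD45.1 TAµ against CD45.2 µ was at -0.01 with DESeq2's size factors and -0.08 with the library total alone. Clec9a in ICV against IV was at -0.15 with the library total alone and -0.06 with no block.

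With each library left out in turn, 22 fitted changes turned sign at least once, and their ranges follow. In CD45.1 TAµ against CD45.1 µ the ranges were Clec9a -0.27 to 3.65, Clec10a -0.21 to 0.60 and Batf3 -0.17 to 1.30. In CD45.2 µ against CD45.1 µ the ranges were Flt3 -0.96 to 1.76, Cd209a -0.61 to 3.04 and Clec9a -3.33 to 2.71. In CD45.1 TAµ against CD45.2 µ the ranges were Flt3 -0.33 to 2.42, Cd209a -0.73 to 2.08, Clec9a -0.95 to 4.89 and Ccr7 -0.99 to 1.17. For ICV against IV they were Flt3 -2.29 to 0.51, Cd209a -1.66 to 0.49, Clec9a -2.79 to 6.19 and Ccr7 -1.78 to 1.44. For ITL against IV they were Flt3 -0.08 to 1.51, Cd209a -1.57 to 0.37 and Clec9a -0.34 to 6.97. For ITL against ICV they were Cd209a -0.76 to 1.04, Clec9a -1.05 to 3.34, Zbtb46 -0.32 to 1.79, Clec10a -0.57 to 0.07 and Batf3 -1.49 to 0.07. The other 20 kept their sign. Their ranges in CD45.1 TAµ against CD45.1 µ were Flt3 0.84 to 2.18, Cd209a 0.89 to 3.88, Zbtb46 1.23 to 6.27 and Ccr7 1.11 to 2.55. In CD45.2 µ against CD45.1 µ they were Zbtb46 0.19 to 5.25, Ccr7 0.68 to 2.77, Clec10a -1.61 to -0.78 and Batf3 -1.91 to -0.53. In CD45.1 TAµ against CD45.2 µ they were Zbtb46 0.21 to 1.90, Clec10a 1.06 to 1.74 and Batf3 0.64 to 2.36. For ICV against IV they were Zbtb46 0.48 to 5.51, Clec10a 0.43 to 1.5 and Batf3 0.69 to 2.34. For ITL against IV they were Zbtb46 0.87 to 6.05, Ccr7 0.29 to 2.64, Clec10a 0.08 to 1.21 and Batf3 0.30 to 1.61. For ITL against ICV they were Flt3 0.23 to 3.02 and Ccr7 0.42 to 3.25. The count of CTR µ markers outside the range of the 9 libraries was 1, and 0 with TMM scaling, 0 without Rn45s and 3 without that pair.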
